A study of Mus musculus with 45 samples.

Results

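To describe how the integrated stress response is expressed in cultured cells of the developing mouse cortex, 10 of its genes were followed among the 53491 genes of the deposited tables. The genes were taken by name: Atf4, Atf5, Ddit3, Trib3, Chac1, Asns, Psat1, Phgdh, Sesn2 and Ddit4. All 10 were present in all 9 tables and passed the filter on low counts in every fit of expression. Cells came from wild-type cortices at E11.5, E14.5 or E16.5 and were measured by SLAM-seq, in which RNA that has taken up 4-thiouridine (4sU) reads C where the genome has T. For each stage, 3 pools of cortices (replicates A, B and C) were collected independently, and a pool combined 7 embryos at E11.5 but 2 embryos at the later stages. Cells were dissociated with trypsin, for longer at each later stage (5, 10 and 20 min), so that stage and time in trypsin cannot be told apart, and were kept in progenitor medium containing N-acetyl-L-cysteine, N2, B27 without vitamin A and bFGF. All of them received 100 uM 4sU for 20 h and then 5 mM uridine as a chase, and RNA was taken 0, 2, 4, 8 and 12 h later from separate wells of the same pool, which gives 45 libraries in 15 groups of 3. No library of uncultured cells, of unlabelled cells or of cells with a blocked or a deliberately triggered stress response was analysed here, so every level below is that of labelled cells in culture, and Atf4 protein was not measured.

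The integrated stress response links several kinds of stress to protein synthesis. The kinases Eif2ak1, Eif2ak2, Eif2ak3 and Eif2ak4 sense heme shortage, viral RNA, unfolded protein in the endoplasmic reticulum (ER) and uncharged tRNA, and phosphorylate the initiation factor eIF2. General translation then falls while the Atf4 mRNA, which carries upstream open reading frames, is translated more, and Atf4 protein binds C/EBP-ATF response elements in genes for amino acid synthesis, amino acid transport and the stress response itself. The abundance of Atf4 mRNA is thus a level of the template and not of the pathway's activity.

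The genes lie on 8 chromosomes and are all annotated as protein-coding. Positions are on GRCm38, the same build as mm10, and cover the whole gene with its introns, whereas values were summed over exons only. Atf4 (ENSMUSG00000042406) lies at chr15:80255184-80257541 on the plus strand, and Atf5 (ENSMUSG00000038539), its close relative, at chr7:44812256-44816658 on the minus strand, where it overlaps Nup62 and Il4i1 on the plus strand. Ddit3 (ENSMUSG00000116429), which encodes the transcription factor CHOP, lies at chr10:127290829-127293753 on the plus strand. Trib3 (ENSMUSG00000032715), a pseudokinase that restrains Atf4 activity, is at chr2:152337422-152344032 on the minus strand, and Chac1 (ENSMUSG00000027313), an enzyme that degrades glutathione, at chr2:119351229-119354381 on the plus strand. Of the biosynthetic enzymes, Asns (ENSMUSG00000029752) makes asparagine and is at chr6:7675169-7693254 on the minus strand. Phgdh (ENSMUSG00000053398), at chr3:98313170-98339990 on the minus strand, opens serine synthesis, and Psat1 (ENSMUSG00000024640), at chr19:15904678-15947337 on the minus strand, catalyses the step after it. Sesn2 (ENSMUSG00000028893), a leucine sensor, is at chr4:132492032-132510501 on the minus strand, and Ddit4 (ENSMUSG00000020108) at chr10:59949669-59951834 on the minus strand, and both restrain the growth kinase mTORC1. The annotation also places a processed pseudogene, Gm3329, across Psat1 and a noncoding gene, Gm12981, on the strand of Sesn2. Whether reads were assigned by strand is not given in the sources used here, so reads of Atf5, Psat1 and Sesn2 may include some of these neighbours.

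The element bound by Atf4 was searched for in the promoter windows of RefSeq (GRCm38.p6), each 300 bases long, from 250 bases before to 50 bases after an annotated start. The letters searched were TGATGNAA on either strand, which read TTNCATCA on the opposite one. They occurred in the windows of 3 of the 10 genes (30.0%), against 1219 of 27025 genes with a window (4.51%) and 1304 of 32851 windows (3.97%). The matches are printed with 30 bases each because they are the only ones in the windows of these genes, and capitals mark the element. Asns carries it on its own strand, with the first base at position -23, Chac1 on the other strand at -193, and Trib3 on the other strand at 15 (positions count from 1 at the RefSeq start, with no 0). The GENCODE genes above start elsewhere, 45 bases before the RefSeq start for Asns, 13 before it for Chac1 and 28 after it for Trib3. By GENCODE the match of Asns lies inside the gene and those of Chac1 and Trib3 lie outside, so which side of the start holds the matches of Asns and Trib3 depends on the annotation.
Asns, chr6:7693214-7693243, minus strand: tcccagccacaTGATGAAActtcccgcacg
Chac1, chr2:119351038-119351067, plus strand: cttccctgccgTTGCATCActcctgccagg
Trib3, chr2:152344028-152344057, minus strand: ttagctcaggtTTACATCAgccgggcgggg
A match describes letters and not a bound site, and the windows of the remaining genes say nothing about elements farther away.

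Libraries held 15.9 to 43.9 M reads in genes (median 33.0), recovered from the deposited values, and 229 to 629 M covered T positions (median 473), with M for 1000000. Expression is given in reads per 1000000 (cpm) as deposited, whose sum over the table was 895846 to 923078 in 42 libraries but 828747 to 878313 in the 3 E11.5 libraries at 12 h. A cpm there lies lower than the fitted fold change, which is normalized over the genes in the table. Cell type markers at 0 h moved with stage. Those of radial glia (Sox2, Pax6, Nes, Hes5 and Vim) summed to 7919 to 8425 cpm at E11.5, 2502 to 3189 at E14.5 and 978 to 1074 at E16.5, and all 5 fell at each step. Markers of neurons (Dcx, Tubb3, Neurod6, Map2 and Stmn2) summed to 2598 to 3145, 5249 to 6008 and 7467 to 7772 cpm, and 5 rose at the earlier step while 4 rose and 1 fell at the later. Markers of intermediate progenitors (Eomes and Neurog2) summed to 71.5 to 76.5, 71.3 to 84.2 and 37.3 to 46.6 cpm. Of them, 1 was higher and 1 lower at E14.5 (median log2 fold change 0.37) and both were lower at E16.5 (-0.91). These medians have the same order of signs as those of the 10 genes below. At E14.5, however, the 2 markers moved apart and their sums overlapped those of E11.5. Markers of interneurons (Gad1, Gad2 and Dlx2) summed to 25.4 to 32.1, 24.7 to 27.7 and 134 to 138 cpm, with 2 higher and 1 lower and then all 3 higher. Erythroid markers summed to 1408 to 3131 cpm and those of fibroblasts and mural cells to 367 to 559 cpm at E11.5, against at most 75.6 and 20.4 cpm later, while the summed level of microglia markers stayed at or under 8.39 cpm and that of endothelium at or under 2.19 cpm. Of the markers, 0 were at 0 reads in every library of a stage. Their part in the stage differences below was not tested, and in these bulk libraries fewer cells of a type and less RNA per cell cannot be told apart.

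The first comparison asked how the genes differed between stages at 0 h, the end of labelling. Of the 10 genes, 8 were higher at E14.5 than at E11.5 (25.1% of the 18408 genes tested were) and 0 were lower (23.5% were, with 0 of the 10 at an unadjusted p under 0.05 and 0 by DESeq2). From E14.5 to E16.5, 9 fell (25.4% did) and 0 rose (24.1% did, with 0 of the 10 at an unadjusted p under 0.05 and 0 by DESeq2). The median log2 fold change was 0.80 over the 10 genes and -0.01 over all genes in the former step, and -1.29 over the 10 genes and 0.00 over all genes in the latter. Both comparisons use the E14.5 libraries, so a high value there enters both with opposite sign. The shares of all genes, here and below, include genes of few reads, since the filter was over 10 covered Ts and a read covers many. At 0 h, 13336 to 14631 genes per library had over 500 covered Ts. The lowest library of the 10 genes at 0 h held 176 reads (Ddit3 at E11.5). Shares over well-covered genes alone are not given here. Tests are edgeR's quasi-likelihood test on covered-T counts with Benjamini-Hochberg adjustment, and all adjusted p-values for expression come from it.

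Among the transcription factors, Atf4 measured 364, 337 and 348 cpm in replicates A, B and C at E11.5, 586, 565 and 586 cpm at E14.5 and 298, 284 and 265 cpm at E16.5. All E14.5 libraries lay above all others, and E16.5 lay below E11.5 without overlap. The log2 fold change was 0.77 ± 0.06 (SE) at E14.5 over E11.5 (adjusted p = 3.2e-07) and -1.01 ± 0.06 at E16.5 over E14.5 (adjusted p = 9.0e-08). Atf5, which is likewise regulated through upstream reading frames, measured 294, 337 and 212 cpm, then 405, 460 and 387 cpm, then 195, 169 and 178 cpm. It had the same order of stages with wider spread at E11.5, and changed by 0.64 ± 0.13 (adjusted p = 0.00104) and -1.20 ± 0.13 (adjusted p = 8.2e-06). Ddit3 differed from them at the later step. It measured 8.92, 8.46 and 10.1 cpm at E11.5, 15.6, 15.5 and 16 cpm at E14.5 and 16.6, 16.6 and 15.7 cpm at E16.5, a rise of 0.88 ± 0.11 (adjusted p = 1.8e-05) and then a log2 difference of 0.01 ± 0.11 (adjusted p = 0.959). The libraries of E14.5 and E16.5 overlapped for Ddit3, the only gene of the 10 for which they did.

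Chac1 had the largest rise of the 10. It measured 10.9, 16.3 and 11.8 cpm at E11.5, 70.1, 64.4 and 58.3 cpm at E14.5 and 25.7, 23.4 and 23.5 cpm at E16.5. The log2 fold change was 2.36 ± 0.14 (adjusted p = 2.4e-08) and then -1.38 ± 0.13 (adjusted p = 3.1e-06), and the E16.5 libraries all stayed above those of E11.5. Trib3, which is both a target and an inhibitor of Atf4, measured 11.3, 17.3 and 21.3 cpm, then 26.6, 27.8 and 30.2 cpm, then 7.08, 6.75 and 6.68 cpm. Its rise was 0.82 ± 0.18 (adjusted p = 0.00172) and its fall of 2.01 on the log2 scale (SE 0.18, adjusted p = 1.7e-06) was the largest of the 10.

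Among the biosynthetic enzymes, Asns measured 255, 307 and 190 cpm at E11.5, 575, 550 and 676 cpm at E14.5 and 194, 179 and 184 cpm at E16.5. It rose by 1.31 ± 0.13 (adjusted p = 4.0e-06) and fell by 1.67 (SE 0.13, adjusted p = 7.7e-07). The serine synthesis enzymes showed small differences at the earlier step and large ones at the later. Psat1 measured 707, 769 and 661 cpm at E11.5 and 733, 728 and 896 cpm at E14.5, which overlap, with a log2 difference of 0.20 ± 0.08 (adjusted p = 0.0508). It passed the threshold without E11.5 replicate B (adjusted p = 0.0243), E14.5 replicate A (0.0409) or E14.5 replicate B (0.0302). At E16.5 it measured 271, 263 and 279 cpm, a fall of 1.50 (SE 0.08, adjusted p = 4.1e-08). Phgdh measured 72.8, 82.9 and 84.3 cpm, then 102, 101 and 90.9 cpm, then 34.9, 23.7 and 27.6 cpm. Its rise of 0.35 ± 0.12 (adjusted p = 0.0317) was lost without E11.5 replicate A (adjusted p = 0.117), E11.5 replicate B (0.0564), E14.5 replicate A (0.0958) or E14.5 replicate B (0.0771), whereas its fall was 1.75 (SE 0.13, adjusted p = 3.7e-07).

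The 2 inhibitors of mTORC1 differed at the earlier step. Sesn2 measured 53.8, 71.6 and 85.2 cpm at E11.5, 118, 139 and 106 cpm at E14.5 and 56.2, 55.5 and 48.6 cpm at E16.5, a rise of 0.85 ± 0.15 (adjusted p = 4.1e-04) and a fall of 1.17 (SE 0.15, adjusted p = 3.6e-05). Ddit4, which hypoxia and glucocorticoids also induce, measured 178, 211 and 167 cpm, then 172, 187 and 161 cpm, then 100, 83.6 and 90.1 cpm. Its E11.5 and E14.5 libraries overlapped (log2 difference -0.05 ± 0.10, adjusted p = 0.692), and it then fell by 0.91 (SE 0.10, adjusted p = 7.3e-06).

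**Figure D1:**
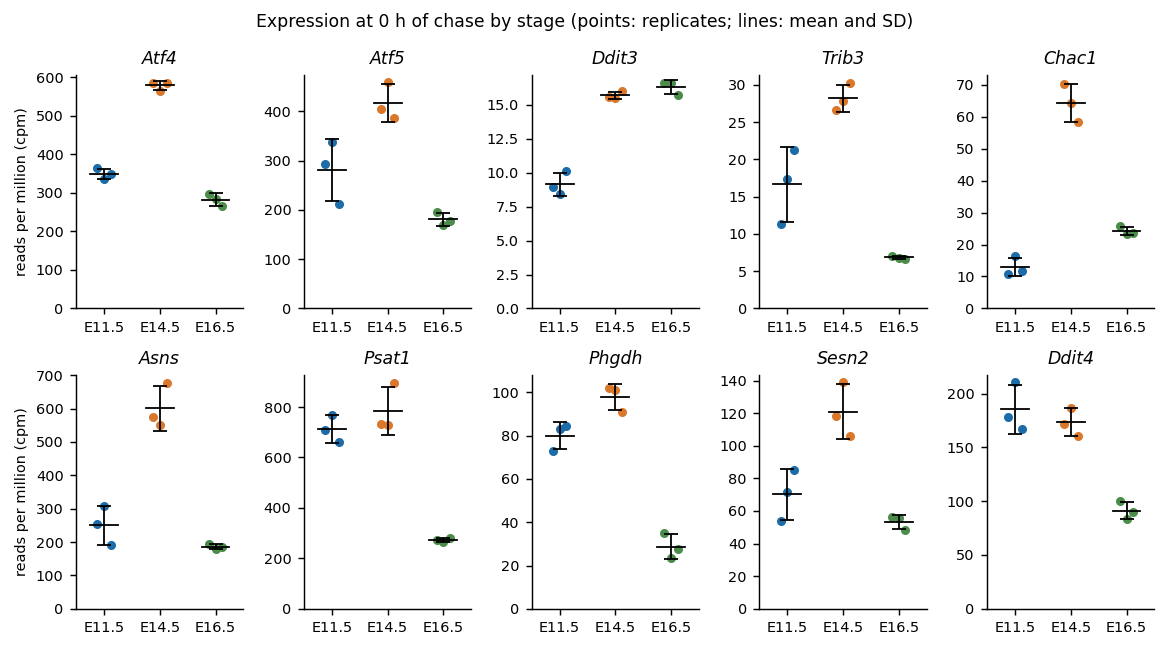
Expression of the 10 genes at 0 h of chase in cpm (y axis, starting at 0), by stage (x axis). Points are replicates, and lines give the mean and SD (n = 3). The E14.5 replicates lie above both other stages for 7 genes, while Ddit3 stays at its E14.5 level at E16.5 and Psat1 and Ddit4 overlap between E11.5 and E14.5.

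**Figure D2:**
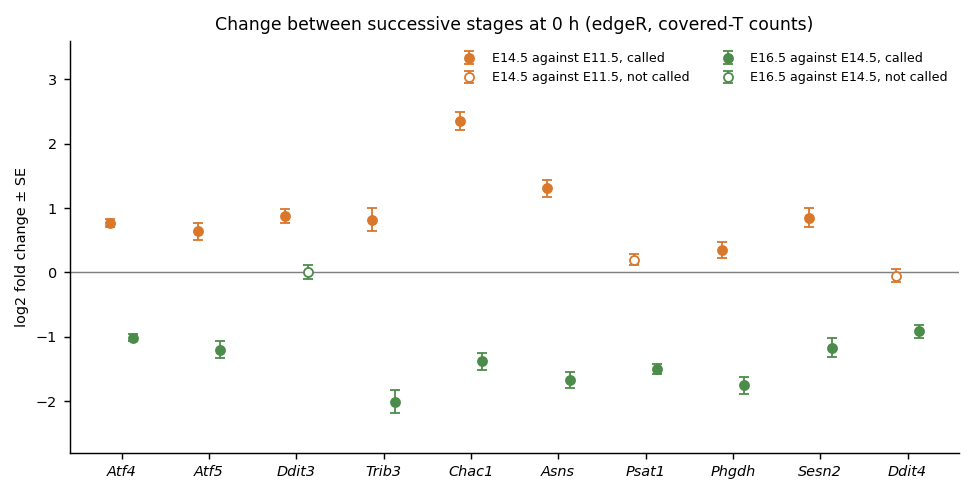
Log2 fold change (y axis, with SE) of each of the 10 genes (x axis) between successive stages at 0 h, 9 libraries in 1 edgeR fit. Filled points passed an adjusted p of 0.05. The E14.5 over E11.5 values run from -0.05 (Ddit4) to 2.36 (Chac1) and the E16.5 over E14.5 values from -2.01 (Trib3) to 0.01 (Ddit3).

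Levels of different genes were set against each other only per kilobase of exon. At 0 h of E14.5 the order in cpm per kilobase was Atf4 (246 ± 5.17, SD, n = 3), Asns (219 ± 24.3), Atf5 (209 ± 19.1), Psat1 (185 ± 22.4), Ddit4 (98.8 ± 7.58), Phgdh (39.5 ± 2.51), Chac1 (39.3 ± 3.59), Sesn2 (34.8 ± 4.86), Trib3 (13.3 ± 0.865) and Ddit3 (9.17 ± 0.146). Neighbours from Atf4 to Psat1 and from Phgdh to Sesn2 differed by less than the sum of their SDs, and the other neighbours by more. At E16.5 the order began with Atf4 (120 ± 7.05), Atf5 (90.6 ± 6.57), Asns (67.8 ± 2.85) and Psat1 (63.8 ± 1.89), and Trib3 (3.22) was the lowest.

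The stage differences were not limited to the end of labelling. Libraries of later times are other wells of the same pools, so they do not repeat the comparison independently. At 12 h the cpm of E11.5 lie lower, as given above, which favours E14.5 being higher there. The replicates of E14.5 lay above those of E11.5 without overlap for 8 genes at 0 h (26.5% of 16559 genes did), 7 at 2 h (23.3%), 8 at 4 h (26.9%), 7 at 8 h (25.6%) and 7 at 12 h (39.4%). The replicates of E16.5 lay below those of E14.5 for 9 genes at 0 h (34.4% of genes did) and for all 10 at 2 h (29.4%), 4 h (34.5%), 8 h (33.9%) and 12 h (34.1%). Ddit3 lay below its E14.5 levels in the chase, at 13.8, 13.8 and 11.9 cpm at 2 h of E16.5 against 15.2, 14.4 and 16.6 cpm at E14.5.

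Other genes of the pathway were counted from fixed lists. These lists and the 10 genes were chosen with earlier results of these data known, so agreement between them is not independent support. Counts are to be read against the shares of all genes given above (25.1% higher and 23.5% lower at E14.5, 24.1% higher and 25.4% lower at E16.5). Of 7 eIF2 kinases and phosphatase genes, 2 were higher and 2 lower at E14.5 (median log2 fold change 0.12), against 2 higher and 3 lower at E16.5 (median -0.17). Eif2ak3 (PERK), the sensor in the ER, rose by 0.82 ± 0.08 to 54.3 cpm, while Eif2ak2 (PKR), the sensor of double-stranded RNA, fell by 1.40 and then by 1.09, and Eif2ak4 (GCN2), the sensor of uncharged tRNA, by 1.06 and then by 0.68. Of 8 subunits of eIF2 and its exchange factor eIF2B, 1 was higher and 2 were lower at E14.5, and 1 was higher and 4 were lower at E16.5 (medians -0.04 and -0.27). At the earlier step both medians lay below the 0.80 of the 10 genes.

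Lists of genes that act beside or downstream of Atf4 had medians of the same sign as the 10. All 7 other stress transcription factors were higher at E14.5 (median 0.81), among them Atf3, from 2.13 to 6.45 cpm (log2 fold change 1.65 ± 0.20), and Nupr1, from 3.96 to 9.82 cpm (1.32 ± 0.22). At E16.5, 4 of the 7 fell and 0 rose (median -0.77), with Nupr1 at 1.99 cpm (-2.25 ± 0.23). Of 10 amino acid transporters, 9 rose and 1 fell at E14.5 (median 0.86), and all 10 fell at E16.5 (median -1.03). Slc7a3, a transporter of cationic amino acids, went from 36.4 to 113 and back to 29.1 cpm, and Slc7a11, the cystine importer, from 26.3 to 64.8 cpm (1.33 ± 0.12). Of 11 genes for amino acid and one-carbon synthesis, 10 rose and 0 fell at E14.5 (median 0.82), and all 11 fell at E16.5 (median -1.15). The mitochondrial folate enzyme Aldh1l2 went from 72.8 to 253 and to 78.8 cpm, and the cysteine-forming enzyme Cth from 28.7 to 67.3 and to 8.98 cpm. Psph, which completes serine synthesis after Phgdh and Psat1, fell from 171 to 45.6 cpm at E16.5 (-1.88 ± 0.09).

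The aminoacyl-tRNA synthetases took an intermediate place, with 11 of 19 higher and 2 lower at E14.5 (median 0.23) and 15 lower and 0 higher at E16.5 (median -0.55). Aars rose by 0.70 ± 0.06 to 412 cpm at E14.5, and Lars fell by 1.11 and Iars by 1.09 at E16.5. Of 15 genes of the ER unfolded protein response, 5 were higher and 1 was lower at E14.5 (median 0.04) against 2 higher and 10 lower at E16.5 (median -0.41). Herpud1, which acts in ER-associated degradation, rose from 30.9 to 69.4 cpm (1.23 ± 0.09) and fell to 42.1 cpm (-0.70 ± 0.09).

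Lists for stimuli that act on some of the same genes gave smaller medians or another order, and their counts are read against the same shares of all genes. Of 10 p53 targets, 0 rose and 3 fell at E14.5 (median -0.24), and 1 rose and 2 fell at E16.5 (median -0.16). Sesn2, which the study also names as a p53 target and which is not in this list, rose at E14.5 and fell at E16.5. Of 9 hypoxia targets, 2 rose and 2 fell, then 1 rose and 2 fell (medians 0.13 and -0.05), and of 7 NRF2 targets, 2 rose and 1 fell, then 0 rose and 2 fell (medians 0.23 and -0.09). Of 5 glucocorticoid targets, 3 rose and 0 fell at E14.5 (median 0.52), and 3 rose and 1 fell at E16.5 (median 0.74), with Sgk1 rising from 5.11 to 13.9 and to 25.7 cpm, while Ddit4, also a glucocorticoid target, fell at that step.

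**Figure D3:**
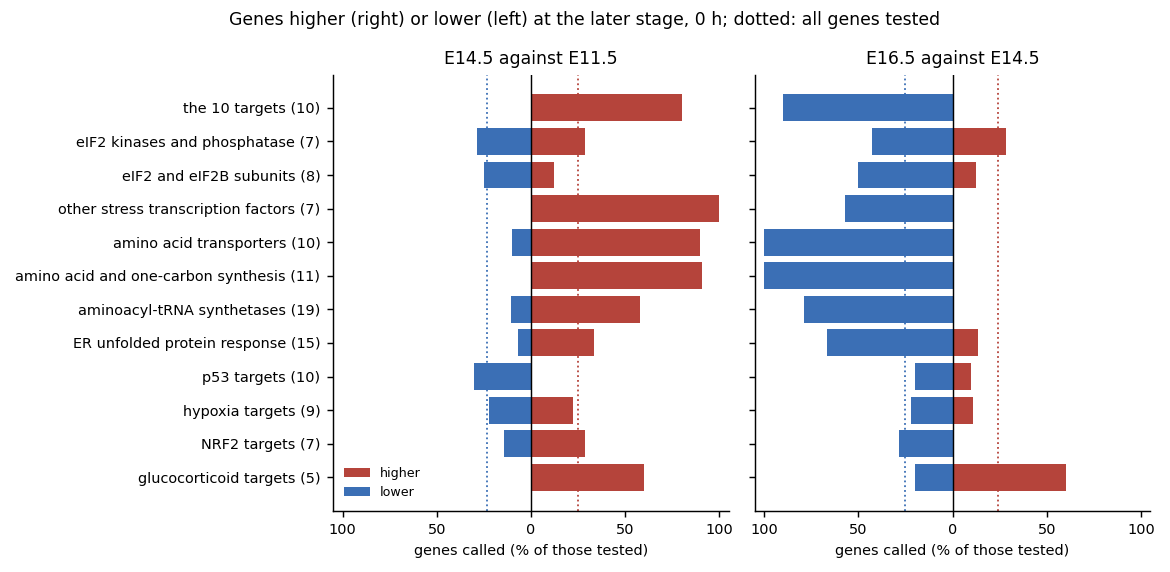
Share of genes called (x axis, percent of those tested) for the 10 genes and each list (y axis, number tested in brackets), higher to the right and lower to the left at the later stage, at 0 h. Dotted lines give the share of all 18408 genes. The 10 genes, transporters and synthesis genes lie beyond them to the right at E14.5 and to the left at E16.5. So do other stress transcription factors, aminoacyl-tRNA synthetases and the ER unfolded protein response. The same holds, at 2 of 7 genes higher at E14.5 each, for eIF2 kinases and phosphatase and for NRF2 targets.

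The next question was how the 10 genes behaved after uridine was added. Wells of a pool share their cells, so the fit with the pool as a block is given beside each count that it changes, and all comparisons within a stage use the same 0 h libraries. Time since the last change of medium grows with chase time, and the 2 cannot be told apart. Over the whole chase, 5 genes changed at E11.5 (Atf4, Trib3, Chac1, Asns and Psat1; 23.9% of 17904 genes did), 7 at E14.5 (Atf4, Ddit3, Trib3, Chac1, Asns, Sesn2 and Ddit4; 25.2% of 17956) and 6 at E16.5 (Atf4, Atf5, Ddit3, Trib3, Chac1 and Sesn2; 33.3% of 18008). With the pool as a block the counts were 6 with Sesn2 added (41.9% of genes), 9 with Psat1 and Phgdh added (48.2%) and 7 with Ddit4 added (50.1%). Atf4, Trib3 and Chac1 thus changed at all 3 stages.

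The E11.5 calls changed with the pools in the fit. A fit without 1 replicate has fewer libraries, and the share of all genes that it called is not given here. A general loss of calls and a loss particular to the 10 genes thus cannot be told apart. Without replicate A or without replicate B, 0 of the 10 genes passed at E11.5 by edgeR (lowest adjusted p 0.107 for Trib3 and 0.0608 for Asns). Without replicate C 5 passed, of which Sesn2 (adjusted p = 3.6e-04) was new and Psat1 was lost (0.0569). At E14.5, Asns was lost without replicate A (adjusted p = 0.280) or B (0.246), and Ddit4 without any 1 replicate (0.0649 to 0.196). At E16.5, Atf5 was lost without any 1 replicate (0.0805 to 0.240).

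At E11.5 the pools shared a rise in the middle of the chase but not its timing. Chac1 was at 43.6, 44.4 and 39.7 cpm at 8 h, which is 4.01, 2.72 and 3.36 times the 0 h level of the same pool. In replicate C it had already reached 40.1 cpm at 4 h, when A and B measured 16 and 19.4 cpm. Trib3 was at 6.33, 8.28 and 12.9 cpm at 2 h, ratios of 0.560, 0.478 and 0.603 (log2 difference -0.87 ± 0.34, adjusted p = 0.283), and stood at 26.5, 33.6 and 31.0 cpm at 8 h. Atf4 was at 542, 593 and 442 cpm at 8 h, all above the highest 0 h library at 364 cpm. At 12 h replicate C had fallen below its 0 h level for Atf4 (ratio 0.730), Trib3 (0.454) and Sesn2 (0.525), whereas in A and B Atf4 and Trib3 were still above it (1.11 and 1.20, 1.46 and 1.26). These ratios use cpm as deposited, whose sum in replicate C was 828747 at 12 h against 907651 at 0 h, which lowers them.

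In the tests at E11.5, 0 of the 10 rose (0.849% of genes did) or fell (0.480%) at 2 h, with Trib3 at an unadjusted p under 0.05 and 0 by DESeq2. At 4 h Asns fell by 0.60 (SE 0.13, adjusted p = 0.0176; 2.35% of genes fell), with Psat1 added by the block (adjusted p = 0.0269; 6.64% of genes), and 0 rose (3.89%; 2 at an unadjusted p under 0.05 and 0 by DESeq2). At 8 h Atf4 (0.59 ± 0.12, adjusted p = 0.00431) and Chac1 (1.73 ± 0.37, adjusted p = 0.00554) had risen (8.15% of genes), joined under the block by Trib3 (adjusted p = 0.0130) and Sesn2 (0.0454; 13.4% of genes), and 0 had fallen (5.96%; 0 at an unadjusted p under 0.05 and 0 by DESeq2). At 12 h Chac1 alone was higher (1.03 ± 0.36, adjusted p = 0.0493; 13.2% of genes) and 0 were lower (9.83%; 0 at an unadjusted p under 0.05 and 0 by DESeq2). The Chac1 call at 12 h was lost by DESeq2 (adjusted p = 0.0814), without replicate A (0.210) and without replicate B (0.282). Without replicate C 3 genes were higher, Chac1 (1.24), Atf4 (0.35) and Trib3 (0.59), and the share of all genes in that fit is not given here.

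At E14.5, 4 of the genes rose by 4 h and 5 lay below the start by 12 h. Atf4 measured 718, 711 and 726 cpm at 4 h, above every 0 h library, and 466, 418 and 448 cpm at 12 h, below every 0 h library. Ddit3 measured 22.5, 23.0 and 20.9 cpm at 4 h and 13.6, 11.1 and 12.3 cpm at 12 h, and Trib3 38.0, 39.7 and 46.5 cpm and then 21.1, 16.2 and 23.1 cpm. The groups did not overlap for these 3 genes at either time. Chac1 measured 68.1, 80.6 and 76.7 cpm at 4 h, overlapping 0 h, and 37.8, 35.7 and 41.6 cpm at 12 h. Asns and Psat1 went the other way at 4 h. Asns measured 442, 419 and 516 cpm, which is 0.768, 0.761 and 0.764 times the 0 h level of each pool, and the ratios of Psat1 were 0.785, 0.795 and 0.771.

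In the tests at E14.5, 0 of the 10 rose (0.524% of genes did) or fell (0.858%) at 2 h, with Ddit4 at an unadjusted p under 0.05 and 0 by DESeq2. At 4 h 4 genes rose (4.71% of genes did), namely Atf4 (0.32 ± 0.06), Ddit3 (0.48 ± 0.10), Trib3 (0.55 ± 0.12) and Ddit4 (0.33 ± 0.09), with Sesn2 added by the block (adjusted p = 0.00976; 11.4% of genes). Asns fell at 4 h by 0.39 (SE 0.09, adjusted p = 0.0237; 1.89% of genes), with Psat1 added by the block (adjusted p = 5.9e-05; 8.16% of genes). At 8 h Ddit3 (0.45 ± 0.10) and Trib3 (0.63 ± 0.12) were higher (3.19% of genes), with Atf4 (adjusted p = 0.0456) and Ddit4 (0.0139) added by the block (9.37% of genes), and 0 were lower (3.0%; 0 at an unadjusted p under 0.05 and 0 by DESeq2). At 12 h 0 were higher (7.64%; 0 at an unadjusted p under 0.05 and 0 by DESeq2) and 5 were lower (7.41% of genes): Atf4 (-0.38 ± 0.06), Ddit3 (-0.35 ± 0.10), Trib3 (-0.48 ± 0.12), Chac1 (-0.73 ± 0.09) and Sesn2 (-0.57 ± 0.12). The block added Asns (adjusted p = 5.8e-04) and Psat1 (0.0204; 13.3% of genes).
Of these 5 falls, that of Ddit3 was lost without replicate A (adjusted p = 0.0721), B (0.245) or C (0.121), that of Trib3 without A (0.0800) or B (0.190), and that of Sesn2 without B (0.0513).

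At E16.5 Trib3 and Sesn2 rose early while Atf4, Ddit3 and Chac1 did not. Trib3 went from 7.08, 6.75 and 6.68 cpm to 11.1, 10.3 and 9.38 cpm at 2 h and to 13.9, 13.8 and 12.8 cpm at 4 h, or 1.96, 2.05 and 1.91 times the level of the same pool at 0 h. At 12 h it was at 3.28, 2.43 and 3.34 cpm. Sesn2 measured 73.6, 73.1 and 69.1 cpm at 4 h, against at most 56.2 cpm at 0 h, and 34.0, 31.6 and 32.4 cpm at 12 h. Over the same 4 h Chac1 went from 25.7, 23.4 and 23.5 cpm to 20.6, 19.6 and 20.3 cpm, and Atf4 was at 275, 260 and 264 cpm at 4 h, against 298, 284 and 265 cpm at 0 h. At 4 h Trib3 was higher in these pools and Atf4 mRNA was not. Atf4 protein was not measured, and what raised Trib3 was not tested.

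In the tests at E16.5, Trib3 (0.57 ± 0.12) and Sesn2 (0.32 ± 0.08) were higher at 2 h (2.93% of genes were) and Chac1 was lower (-0.34 ± 0.09; 2.87% of genes), with Ddit3 added by the block (adjusted p = 0.0362; 7.84% of genes). Without replicate A the adjusted p of these 3 calls was 0.128 for Trib3, 0.154 for Sesn2 and 0.0937 for Chac1. The call of Sesn2 was also lost without B (adjusted p = 0.156), that of Trib3 without C (0.140) and that of Chac1 without B (0.153) or C (0.305). At 4 h Trib3 (1.00 ± 0.12) and Sesn2 (0.45 ± 0.08) were higher (7.54% of genes), with Atf5 (adjusted p = 0.0251) and Ddit4 (0.0150) added by the block (12.0% of genes). At the same time 0 were lower (6.47%; 1 at an unadjusted p under 0.05, Chac1, and 0 by DESeq2), and the block added Chac1 (adjusted p = 0.0140; 12.1% of genes). At 8 h Atf5 was higher (0.19 ± 0.06; 10.8% of genes), with Trib3 added by the block (adjusted p = 0.0281; 16.3% of genes), and Atf4 (-0.27 ± 0.07), Ddit3 (-0.34 ± 0.08) and Chac1 (-0.57 ± 0.09) were lower (8.59% of genes).

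At 12 h of E16.5, 0 genes were higher (14.2%; 0 at an unadjusted p under 0.05 and 0 by DESeq2) and 5 were lower (12.0% of genes): Atf4 (-0.51 ± 0.07), Ddit3 (-0.65 ± 0.08), Trib3 (-1.20 ± 0.13), Chac1 (-1.08 ± 0.09) and Sesn2 (-0.67 ± 0.08). All 5 kept their call without any 1 replicate. They are the 5 genes that were lower at 12 h of E14.5, while the log2 differences of Psat1, Phgdh, Atf5, Asns and Ddit4 lay between -0.11 and 0.14. The median over the 10 genes was -0.30 at E14.5 and -0.31 at E16.5, against 0.00 over all genes at both stages.

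The change from 0 h to 12 h was then compared between stages in 1 fit of all 45 libraries. It differed for 4 of the 10 genes (9.61% of 16559 genes): Chac1 (adjusted p = 1.4e-04), Atf4 (3.7e-04), Ddit3 (0.0197) and Trib3 (0.0351). For Chac1 the 3 changes were 1.03, -0.73 and -1.08, and for Atf4 0.20, -0.38 and -0.51. With the pools as a block 7 genes differed (23.2% of genes), with Asns (adjusted p = 0.00839), Psat1 (0.0112) and Sesn2 (0.0343) added. The call of Trib3 was lost in recovered reads (adjusted p = 0.0579). The joint fit used 1 estimate of spread per gene for all stages. In the fits by stage the SE of this change was larger at E11.5. It was 0.36 for Chac1, against 0.09 at both later stages, and 0.33 for Trib3, against 0.12 and 0.13. The p-values of the joint fit may therefore be too small. Cell type markers also moved over the same 12 h. For the 3 stages in order, the median log2 changes were -0.51, -0.32 and -0.75 for intermediate progenitors (of 2 markers 1, 1 and 2 were lower), -0.43, -1.30 and -0.91 for erythroid cells (0 of 4, 2 of 4 and 1 of 3 tested were lower) and -1.27, -0.74 and 0.06 for microglia (of 3 markers 2, 0 and 0 were lower). Interneuron markers had medians of 0.75, 0.16 and -0.19 (2, 1 and 1 of 3 higher, and 0, 1 and 1 lower), and those of neurons 0.21, 0.08 and 0.22 (2, 0 and 4 of 5 higher). The medians of radial glia, endothelium and of fibroblasts and mural cells lay between -0.29 and 0.25. The part of these markers in the changes of the 10 genes was not tested.

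**Figure D4:**
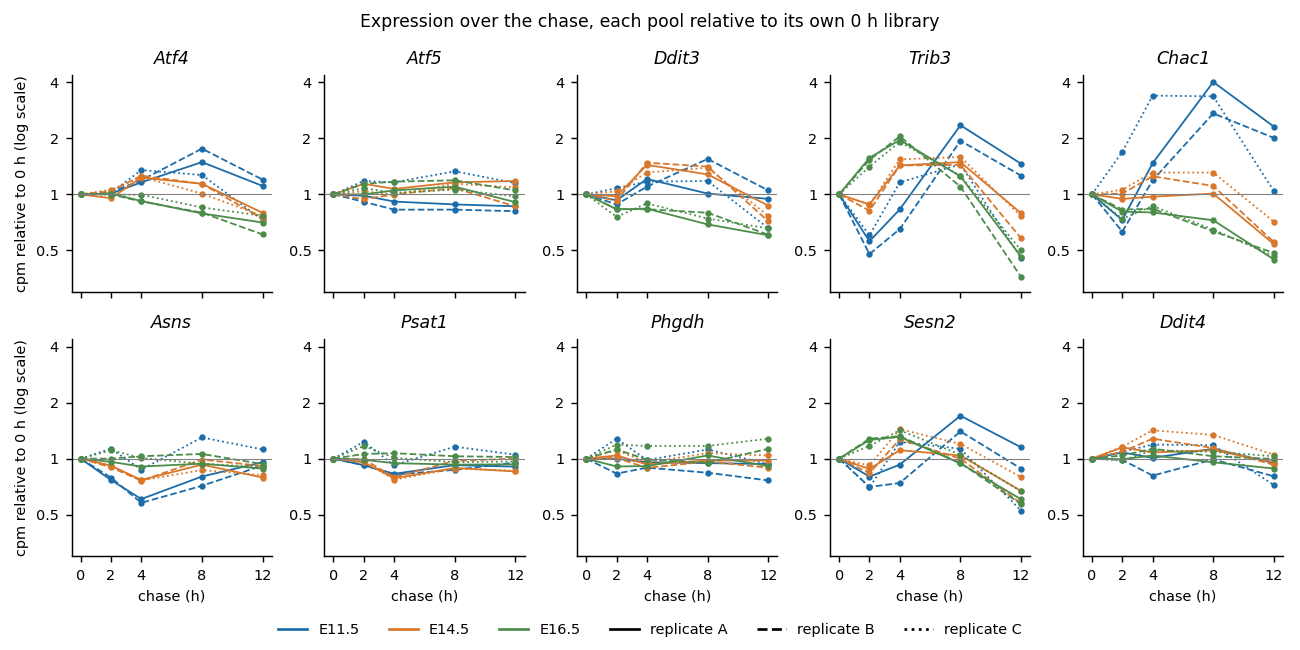
Expression of each gene over the chase (x axis, h) as cpm divided by the 0 h cpm of the same pool (y axis, log scale), with 1 line per pool and 1 colour per stage. Chac1 climbs to between 2.72 and 4.01 at 8 h of E11.5 and falls to between 0.447 and 0.484 at 12 h of E16.5, while Psat1 stays between 0.771 and 1.23 and Phgdh between 0.764 and 1.28. Values are cpm as deposited, which lie lower at 12 h of E11.5. The 0.764 of Phgdh is from there, where its fitted log2 change over the 3 pools was 0.02.

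Half-lives were fitted to the decline of the T-to-C conversion rate, the share of covered T positions read as C. A half-life was kept where the gene had over 500 covered Ts at all times and, in all 3 replicates, an R2 over 0.6 and a value under 24 h. Of the 30 combinations of gene and stage 26 had one, and 7 genes had one at all 3 stages. Trib3 at E14.5 and E16.5, Ddit3 at E14.5 and Phgdh at E16.5 did not. For the 3 stages in order, the medians of all transcripts were 4.43, 4.60 and 3.48 h.

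By the decline of the conversion rate, Chac1, Sesn2, Ddit4 and Atf4 were short-lived and the biosynthetic enzymes long-lived. In the same order of stages Chac1 had 2.02 ± 0.521 (SD, n = 3), 2.74 ± 0.368 and 1.42 ± 0.0658 h, at percentiles 1.17, 7.03 and 0.633 of all transcripts. Sesn2 had 2.52 ± 0.224, 2.47 ± 0.238 and 2.26 ± 0.263 h, and Ddit4 2.70 ± 0.475, 2.67 ± 0.198 and 1.81 ± 0.168 h. Atf4 had 3.14 ± 0.335, 3.65 ± 0.274 and 2.42 ± 0.179 h, at percentiles 14.7, 24.5 and 19.4. The values of Chac1, Sesn2, Ddit4 and Atf4 all lay under the median of their stage. Asns had 6.06 ± 0.999, 6.14 ± 0.261 and 5.19 ± 0.284 h and Psat1 6.96 ± 1.25, 5.93 ± 0.255 and 5.43 ± 0.212 h. Phgdh had the longest values at the first 2 stages, 9.31 ± 0.748 and then 11.9 ± 2.48 h, at percentiles 96.6 and 98.3.

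The transcription factors did not share a half-life. Atf5 had 7.27 ± 1.17, 6.76 ± 0.163 and 6.14 ± 0.203 h, over the median at each stage, in contrast to Atf4. Ddit3 had 9.50, 3.18 and 3.29 h in replicates A, B and C at E11.5, so that its mean of 5.32 h there rests on replicate A, and at E16.5 it had 2.60 ± 0.659 h. Trib3 had 5.83 ± 1.06 h at E11.5.

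**Figure D5:**
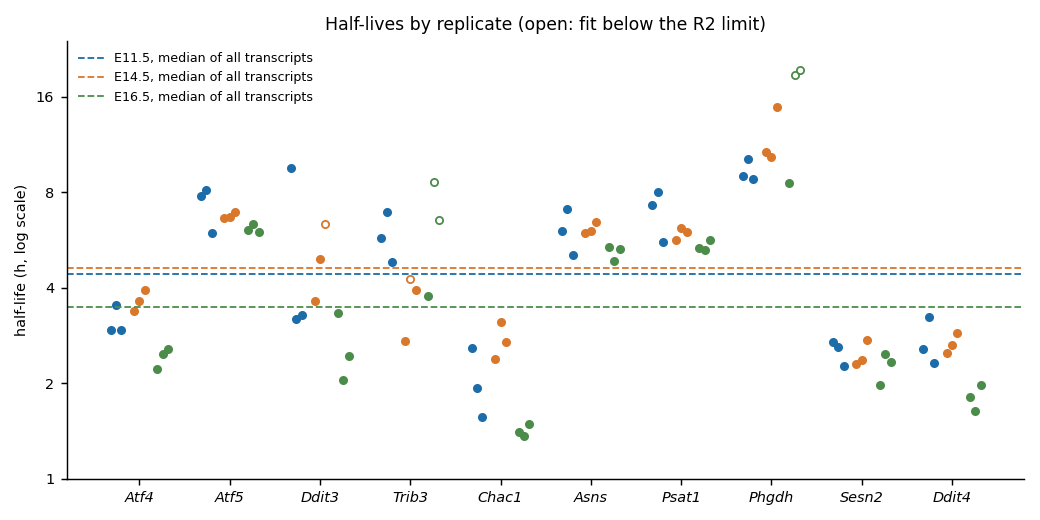
Half-life (y axis, h, log scale) of each gene (x axis) by replicate, coloured by stage, and dashed lines are the medians of all transcripts at 4.43, 4.60 and 3.48 h. Open points are fits with an R2 under 0.6. Chac1, Sesn2, Ddit4 and Atf4 lie under the lines and Atf5, Asns, Psat1 and Phgdh above them.

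Between stages, 23 pairs of half-lives were compared by exact two-sided permutation tests, in which 3 replicates against 3 cannot give less than p = 0.1 and the lowest adjusted p was 0.256. The replicates of E16.5 lay under those of both other stages for 3 of 7 genes (Atf4, Chac1 and Ddit4), as for 46.3% of 9505 transcripts. They lay under those of E14.5 for 5 of 7 (Atf5 and Asns added), as for 67.7% of 10287 transcripts, so both counts are near the shares of all transcripts. Of 8 genes, Phgdh alone lay higher at E14.5 than at E11.5 (10.7% of 9759 transcripts did). The median of all transcripts was also lower at E16.5, so values were scaled to z-scores over the transcripts of a replicate and then compared over the 3 stages with limma. Of the 7 genes tested, 0 differed (3.15% of 9505 transcripts did), with Psat1 (adjusted p = 0.0717) and Atf5 (0.0870) under an unadjusted p of 0.05. In hours without z-scores Atf4 passed (adjusted p = 0.0460), and with R2 over 0.8 Psat1 did (0.0364).

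A half-life fitted to the conversion rate assumes that labelled RNA is diluted at a steady pace. Where expression moved during the chase, the rate times the cpm, which follows labelled RNA per library, was fitted as well. For Chac1 and Trib3 at E11.5 that measure did not follow an exponential in all 3 replicates by the same filters (R2 of -0.491, -0.306 and 0.858 for Chac1 in replicates A, B and C), so no half-life was kept. In replicate C, where the fits passed, it gave 5.48 h for Chac1 and 4.31 h for Trib3, against 1.56 and 4.83 h from the rate. Over the other 24 combinations the ratio of the 2 half-lives ran from 0.759 (Asns at E11.5) to 1.26 (Ddit4 at E14.5), with a median of 1.01. Rates also flattened late. Atf4 at E11.5 went from 1.05, 0.904 and 1.34% at 0 h to 0.208, 0.177 and 0.206% at 8 h and 0.179, 0.187 and 0.192% at 12 h. No unlabelled library was used here. When the lowest percentile of rates among genes with over 20000 covered Ts at 12 h (0.122 to 0.153%) was subtracted, all 26 half-lives were shorter, by a ratio of 0.613 to 0.892, with Chac1 at 1.32, 1.68 and 1.11 h. This setting was chosen after seeing the data.

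Label at 0 h also differed between the genes. The median rate over genes was 1.02 to 1.45% at E11.5, 1.05 to 1.22% at E14.5 and 1.79 to 1.89% at E16.5. Relative to that median, Atf4 stayed at 0.921 ± 0.0343 (SD, n = 3), 0.907 ± 0.0183 and 0.893 ± 0.0158. Psat1 went from 1.02 ± 0.0603 and 0.953 ± 0.00599 to 0.668 ± 0.00598 at E16.5, Phgdh from 0.988 ± 0.197 and 1.17 ± 0.0328 to 0.595 ± 0.183, Sesn2 from 0.959 ± 0.0376 and 1.09 ± 0.0537 to 0.728 ± 0.0578, Atf5 from 0.940 ± 0.0520 and 0.952 ± 0.0203 to 0.736 ± 0.0151, and Ddit4 from 0.913 ± 0.0322 and 0.954 ± 0.0200 to 0.817 ± 0.0116. For these 5 of the 10 genes the relative rate was lower at E16.5 than at both earlier stages without overlap between replicates, as for 14.3% of 12530 genes.

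Last, the genes whose levels over the 45 libraries, centred within each stage, ran most like the mean of the 10 were Aars (Pearson r = 0.867), Slc7a1 (0.854), Trim66 (0.797), Eif4ebp1 (0.793) and Slc6a9 (0.783), of 11496 genes compared. Aars charges tRNA with alanine, Slc7a1 imports cationic amino acids, Slc6a9 imports glycine and Eif4ebp1 restrains cap-dependent translation. Among the 10 themselves, the highest r was 0.92 between Trib3 and Sesn2, then 0.80 between Atf4 and Ddit3 and between Atf4 and Chac1. Asns and Psat1 ran together (0.76), but Psat1 had -0.19 with both Atf4 and Ddit3. These are descriptions over libraries that share pools and depth, and carry no test.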

How the data were processed

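RNA of mouse cortical cells was alkylated and sequenced from stranded mRNA libraries (Illumina). According to the labels and methods, the authors aligned reads with SlamDunk 0.4.3 to mm10 and assigned them to exons of GENCODE mouse release 24. Reads that align to more than 1 place, as with pseudogene copies, and the strand rule of the assignment were not given in the sources used here. Covered-T counts per gene (the number of reference T positions covered by reads) were used as deposited. CPM values, on reads per library, were deposited by the authors as well, and 100% of them were whole numbers of reads within 0.01 after division by the value of 1 read. The T-to-C conversion rate was deposited as a fraction and is printed as a percent. The authors' half-life columns served only to check the refit and no value of them is printed.

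Positions and identifiers were taken from GENCODE release 21 (GRCm38), matched by gene name. Entries that share a name were not told apart. For such a name 1 identifier and position would be printed, and exon length would cover all its entries. Counts were tested with edgeR 4.0.16 in R 4.3.3 (TMM, over 10 counts in all libraries of the fit, adjusted p under 0.05 over all genes tested). Contrasts at 2, 4, 8 and 12 h come from 1 fit per stage, and those at 4 and 8 h were added after seeing the data. An exponential through the 0 h rate gave half-lives, and 115605 of 115612 refits lay within 1% of the deposited value. They were compared with limma 3.58.1 and with exact two-sided permutation tests adjusted by the Benjamini-Hochberg method. Alternatives were size factors and tests of DESeq2 1.42.0, recovered reads, no filter, the 2-fold rule of the study, 45 libraries in 1 fit, a replicate block, other measures and filters of half-lives, and leaving out each replicate. Not every result had every alternative, and the change over 12 h was not compared between stages with a replicate left out. Python 3.11.15, numpy 2.4.6, pandas 2.3.3 and matplotlib 3.10.9 were also used, and the tests were first run on simulated data.

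Groups follow the labels. A letter marks 1 pool of embryos divided over 5 wells of a stage, per the growth protocol. Wells of a pool deviated together (median correlation of deviations 0.25 to 0.55 by pool, lowest pair -0.00, over 13670 genes). The main fits within a stage had no block, and their fold changes, SEs and adjusted p-values are printed unless the block is named. The fit with the pool as a block is the alternative given beside them. Across stages the same letter is different embryos (medians -0.11 to 0.02). The members and lists were chosen with earlier results of these data known. Every member is named, and from each list at most 3 genes per comparison with the largest change past the threshold. The genes most like the members were the 5 with the highest r among those of mean cpm at or over 5.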

Additional observations from a re-analysis of the deposited data

Results flagged for a closer look

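For 4 of the 10 genes the change from 0 h to 12 h of chase differed between the stages, by edgeR's quasi-likelihood test of the 2 interaction contrasts over 45 libraries. For Chac1 (adjusted p = 1.4e-04) the log2 changes from the earliest to the latest stage were 1.03, -0.73 and -1.08. For Atf4 (adjusted p = 3.7e-04) they were 0.20, -0.38 and -0.51, for Ddit3 (adjusted p = 0.0197) 0.01, -0.35 and -0.65, and for Trib3 (adjusted p = 0.0351) 0.13, -0.48 and -1.20. The sign at E11.5 was opposite to that of the later stages for all 4, but the values of Ddit3 and Trib3 at E11.5 lay within 1 SE of 0. That of Atf4 did not pass in edgeR's test within E11.5 (adjusted p = 0.249). Replicate C was below its own 0 h level for Atf4 and Trib3 at 12 h, and the comparison between stages was not repeated with a replicate left out. In recovered reads the adjusted p of Trib3 was 0.0579. The fit used 1 estimate of spread per gene for all stages, although the SE within E11.5 was larger, so these p-values may be too small.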

How the results depend on the processing

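Counts of called genes stayed within 1.5 times the value in the text in 108 of the 126 recalculations. At 0 h the 2-fold rule left 2 of 8 genes higher at E14.5 and 8 of 9 lower at E16.5. The share of all genes under that rule is not given here. A general loss of calls and a loss particular to these genes thus cannot be told apart. At 0 h the letter as a replicate block kept 8 and 9 calls. At 12 h of E11.5, 0 genes were called with size factors of DESeq2, with recovered reads and by DESeq2, against 1. With the pool as a replicate block, 7 genes differed between stages in their change over 12 h, against 4. For relative half-lives, 1 gene passed in hours without z-scores and 1 with R2 over 0.8, against 0. The cause of these shifts was not tested. For the fits without 1 replicate that follow, the shares of all genes are likewise not given here. Their counts cannot separate a general shift in calls from one particular to these genes. Leaving out 1 replicate gave 0 to 5 genes over the E11.5 chase (5 with all replicates), 0 to 1 at 2 h (0) and 0 to 3 at 12 h (1) of E11.5, 2 to 4 at 12 h of E14.5 (5) and 0 to 1 at 2 h of E16.5 (3), with fewer samples by construction.

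Sign changes were seen only for values that had not been called. Ddit3 between E14.5 and E16.5 was at -0.01 with no filter, and at 12 h of E11.5 recovered reads gave -0.03 for Ddit3 and -0.01 for Phgdh. Without 1 replicate, Ddit4 between E11.5 and E14.5 ran from -0.12 to 0.05 and Ddit3 between E14.5 and E16.5 from -0.01 to 0.03. At 12 h of E11.5 Atf5 ran from -0.10 to 0.18, Ddit3 from -0.10 to 0.15, Trib3 from -0.12 to 0.59, Phgdh from -0.10 to 0.12 and Sesn2 from -0.30 to 0.16. At 12 h of E14.5 Atf5 ran from -0.04 to 0.20, Phgdh from -0.11 to 0.03 and Ddit4 from -0.10 to 0.01, and at 12 h of E16.5 Atf5 from -0.07 to 0.02 and Ddit4 from -0.07 to 0.05.

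Precision rests on 3 pools per stage, and the p-values over wells of the same pools measure the spread between wells as well as pools. The planned background, the lowest percentile of rates over genes with over 500 covered Ts, was 0 in all 9 pools and changed no half-life. Half-lives without the 12 h libraries were 0.905 to 1.22 times those with them. Covered-T counts hold many positions per read, so precision at low levels is set by reads, as for Ddit3 with 176 to 262 reads per library at 0 h of E11.5.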
